A study of Homo sapiens with 10 samples.

Results

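The zinc finger genes of chromosome 19 were described across 5 lines derived from HCT116, a long-established cell line of human colorectal carcinoma. Members were all genes named on the array whose symbol is ZNF followed by a number and at most 1 letter, and which the RefSeq gene table (GRCh38.p14) places on chromosome 19. This gave 226 of the 14884 genes named on the array, 225 of them protein coding and 1 a pseudogene (ZNF542P). Each gene was represented by its brightest probe set, and 5 members had more than 1. RNA was compared on Affymetrix arrays from the mutant lines ORC1B14, ORC1BP32, ORC2B2 and ORC2BP8 and from the wild-type line (WT), with 2 arrays per line and 10 in all. All 5 were untreated, and the labels speak of ORC mutant lines without giving the kind of mutation, so the mutated gene was read from the line's name. Each mutated gene has 2 lines, whose mutations may or may not be the same, and WT is 1 line. A difference from WT therefore cannot be told apart from a difference between lines. ORC1 and ORC2 themselves were not among the named genes and are not analysed here.

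Most of these genes encode KRAB zinc finger proteins, the largest family of human transcription factors. An array of C2H2 zinc fingers binds DNA, often within transposable elements, and the KRAB domain recruits TRIM28, which brings SETDB1 to methylate histone H3 at lysine 9 (H3K9me3). The genes arose by tandem duplication and lie in clusters that are themselves marked by H3K9me3 and HP1 proteins. The origin recognition complex, to which both ORC1 and ORC2 belong, loads the replicative helicase and is also known to associate with HP1 and heterochromatin.

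Epithelial origin was checked first: all 6 named markers of colon epithelium (of 8 listed), EPCAM and KRT18 among them, lay above the array median on all 10 arrays, between 4.54 and 11.9. None of the 2 named fibroblast markers or the 2 named blood markers did on any array. Of 3 hepatocyte markers, APOA1 and TTR lay above it on all arrays and ALB on none, and TBX2, the 1 named marker of neuronal or kidney lines, lay above it on all. Values are the deposited expression values, read as log2. Array medians over all probe sets were between 3.87 and 3.96, and pairs of arrays correlated at 0.968 to 0.989 across probe sets. Every replicate 1 array had a higher median (3.94 or more) than every replicate 2 array (3.89 or less). Arrays give no read depth, and their number limits the precision. The array titles number the replicates as biological, but nothing says that they came from separate cultures. The p-values therefore rest on a spread between arrays that may be technical.

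A member was tested where its probe set reached the array median on at least 2 arrays, which held for 145 of 226 members. Of the 145, 122 did so on all 10 arrays, 4 on exactly 2 (ZNF486, ZNF708, ZNF527 and ZNF613), and 1, ZNF613, in the arrays of ORC2B2 only. The 81 members not tested had mean values between 2.16 and 3.66. They lay above the array median on no array in 78 cases and on 1 array for ZNF43, ZNF529 and ZNF569. Tested members had mean values between 3.42 and 9.86. Probe sets differ in their response to RNA, so these values do not rank the genes by abundance. Paralogs in these clusters have near-identical stretches, and whether a probe set also reads a neighbour's transcript was not tested.

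**Figure D1:**
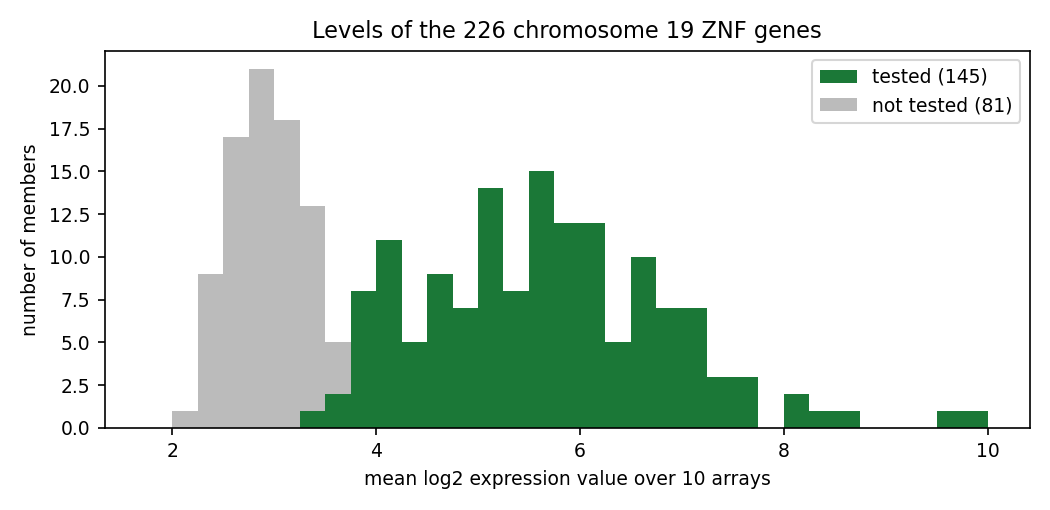
Mean log2 expression value over 10 arrays (x axis, narrow equal bins) against the number of members (y axis), stacked for the 145 tested (green) and the 81 not tested (grey). The untested genes fill the low end, between 2.16 and 3.66, and the tested genes reach 9.86.

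In order along the chromosome, members formed 11 clusters, defined as runs of at least 5 members with at most 5 other protein-coding genes between neighbours. The clusters held 205 members, of which 126 were tested, and 21 members lay in none. The share tested differed between clusters. It was 35 of 42 in the cluster from ZNF264 to ZNF446, 20 of 31 from ZNF577 to ZNF331, 14 of 23 from ZNF653 to ZNF791, 15 of 31 from ZNF101 to ZNF254, 10 of 24 from ZNF565 to ZNF573 and 10 of 20 from ZNF283 to ZNF180. The smaller clusters gave 7 of 7 from ZNF628 to ZNF580, 7 of 10 from ZNF317 to ZNF846, 4 of 5 from ZNF554 to ZNF77, 3 of 5 from ZNF302 to ZNF792 and 1 of 7 from ZNF542P to ZNF835.

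Of the 145 tested members, 1 was called as differing between lines, in a fit without a replicate block. Counts with such a block are given at the end. Differences were tested with limma, with Benjamini-Hochberg adjustment over all 10797 genes tested, and called at an adjusted p under 0.05. No member was called in ORC1B14 minus WT, where 0.583% of all genes were called. None was called in ORC1BP32 minus WT (0.0185% of all genes) or in ORC2B2 minus WT (0.333%). In ORC2BP8 minus WT 1 member was called, ZNF614, which was lower, while 0.935% of all genes were called. The mean of the 4 mutant lines minus WT gave 0 members, against 1.02% of all genes. The 4 line comparisons share the WT arrays. A moderated F test of any difference among the 5 lines called 1 member, again ZNF614, against 0.658% of all genes. At an unadjusted p under 0.05 that test took in 15 members (10.3%), against 11.8% of all genes.

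At the same unadjusted level, ORC1B14 minus WT gave 2 members higher (1.38%) and 10 lower (6.90%), against 8.15% and 8.81% of all genes. ORC1BP32 minus WT gave 5 higher (3.45%) and 7 lower (4.83%), against 5.28% and 4.82% of all genes. ORC2B2 minus WT gave 13 higher (8.97%) and 5 lower (3.45%), against 5.82% and 5.87%. With the filter on all 10 arrays it gave 9 higher and 5 lower of 122 members, so the higher count depended partly on the filter. The share over all genes at that filter is not given here. ZNF613 entered the test through its ORC2B2 arrays alone, where it was high. ORC2BP8 minus WT gave 8 higher (5.52%) and 3 lower (2.07%), against 7.41% and 7.15%. For the mean of the 4 mutant lines the counts were 7 higher and 8 lower, against 8.76% and 8.51% of all genes. As shares of the 145 members, that is 4.83% higher and 5.52% lower, both under the shares over all genes. The higher counts of ORC1BP32, ORC2B2, ORC2BP8 and the mean include ZNF136, which was tested only through lines in which it was high. The lower count of ORC1B14 includes ZNF493 and ZNF91, which reached the array median on no array of that line.

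Medians over the members were set beside those of the other genes of their chromosome. The 688 other tested genes of chromosome 19 had a median log2 difference from WT of 0.22 for ORC1B14, 0.15 for ORC1BP32, 0.08 for ORC2B2 and 0.15 for ORC2BP8. Over the 145 members the median was -0.01 for ORC1B14, 0.01 for ORC1BP32, 0.08 for ORC2B2 and 0.05 for ORC2BP8, and that over all genes tested was 0.04, 0.04, 0.03 and 0.03 in the same order of lines. In ORC1B14, 48.3% of members lay above WT, against 78.9% of the other chromosome 19 genes and 55.0% of all genes. In ORC2B2 the shares were 62.1%, 65.3% and 54.0%, the closest of the 4 lines. The 210 tested ZNF genes of other chromosomes, chosen by the same symbol rule, had medians of -0.04, -0.04, 0.01 and 0.02. Leaving out 1 array moved the median of the members to between -0.11 and 0.06 for ORC1B14 (lowest without its replicate 2, highest without its replicate 1), between -0.03 and 0.09 for ORC1BP32 (lowest without its replicate 2, highest without WT replicate 2), between 0.02 and 0.15 for ORC2B2 and between -0.03 and 0.13 for ORC2BP8. For both ORC2 lines the lowest was without WT replicate 1 and the highest without WT replicate 2. The side of WT on which the median lay thus depended on single arrays in every line but ORC2B2. These medians describe the lists, and the differences between lists were not tested.

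ZNF614 was the called member, and it had the largest SD over the line means (0.73). It lies in the cluster from ZNF577 to ZNF331, and RefSeq places its transcription start on the minus strand. The 250 bases before that start are shown because this is the called member. They lie at chr19:52028380-52028629 (GRCh38.p14, minus strand, 5′ to 3′), and none of the letters is capitalised because none of the words searched further on occurs in them.
ZNF614: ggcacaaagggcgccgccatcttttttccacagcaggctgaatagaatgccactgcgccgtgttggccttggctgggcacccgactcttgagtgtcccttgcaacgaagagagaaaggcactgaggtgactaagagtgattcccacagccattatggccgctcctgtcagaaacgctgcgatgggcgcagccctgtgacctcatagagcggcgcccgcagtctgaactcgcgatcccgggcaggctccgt

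The ZNF614 values were 5.97 and 6.63 in ORC1B14, 5.65 and 5.58 in ORC1BP32, 5.89 and 5.61 in ORC2B2, 4.19 and 4.44 in ORC2BP8, and 5.53 and 5.66 in WT. Both ORC2BP8 arrays lay below all 8 other arrays, and ORC1B14 held the highest value. The difference ORC2BP8 minus WT was -1.28 on the log2 scale (SE 0.24, limma adjusted p = 0.0371), and it was -1.33 within the replicate 1 arrays and -1.22 within the replicate 2 arrays. ZNF614 also fell in ORC2BP8 relative to the other ORC2 line, by 1.44 on the log2 scale (SE 0.24, limma adjusted p = 0.0431). The F test gave an adjusted p of 0.0327.

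In ORC1B14 minus WT the ZNF614 difference was 0.70 (SE 0.24, adjusted p = 0.179). Over both lines of each kind, ORC1 minus ORC2 was 0.92 (adjusted p = 0.114), with ORC2BP8 the low line and ORC2B2 near WT. The call in ORC2BP8 minus WT was lost on leaving out any 1 of the 8 arrays of ORC1BP32, ORC2B2, ORC2BP8 and WT, and held without either ORC1B14 array, with differences from -1.40 to -1.16 and adjusted p from 0.0190 to 0.202. The call against ORC2B2 likewise held without either ORC1B14 array alone, with adjusted p from 0.0327 to 0.314.

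The tested neighbours of ZNF614 were compared in the same line. On one side along the chromosome, ORC2BP8 minus WT was 0.24 for ZNF841, 0.34 for ZNF616, 0.24 for ZNF766 and 0.74 for ZNF480, none of them called. On the other side the nearest tested member, ZNF613, had 3.85 and 3.55 in ORC2BP8, against 3.56 and 3.76 in WT. All 4 of these values lay under the array median, so a lower level of ZNF613 could hardly be seen. ZNF613 entered the test through its ORC2B2 arrays alone, at 4.82 and 4.17, and its difference there is given no test. The neighbours ZNF350, ZNF615 and ZNF432 were not tested.

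**Figure D2:**
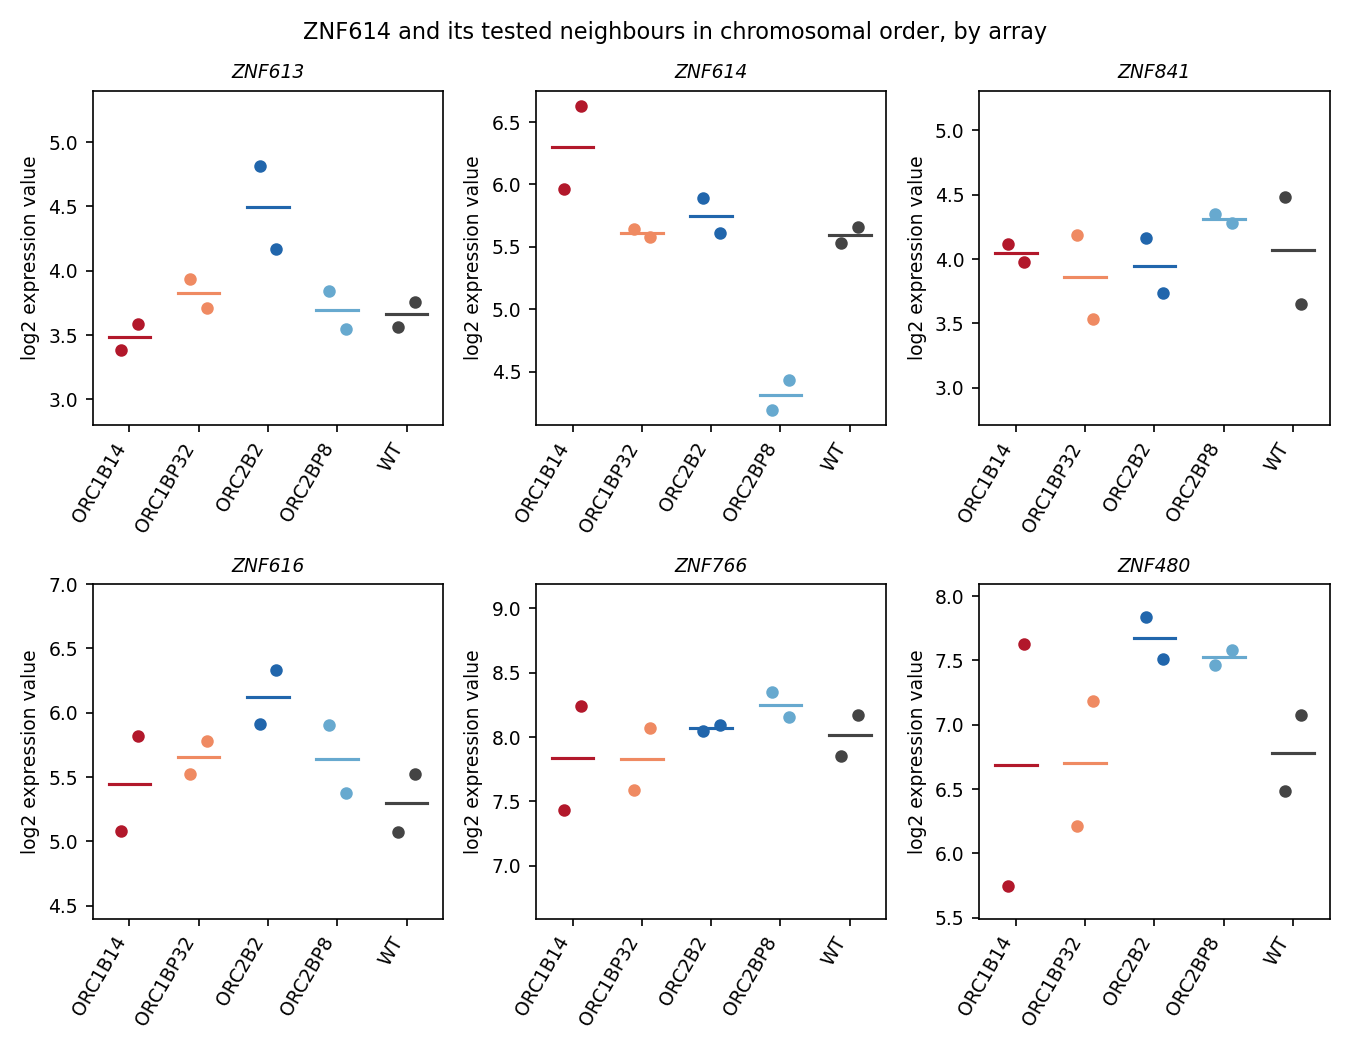
Log2 expression value (y axis) of ZNF614 and 5 tested neighbours in each of the 10 arrays, by line (x axis). Points are arrays (replicate 1 left, replicate 2 right) and bars are line means. ZNF614 lay at 4.19 and 4.44 in ORC2BP8 and at 5.53 or above in every other array, while ORC2BP8 overlapped other lines in the neighbours.

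Some members lay on one side of WT in all 4 mutant lines. Every mutant array was above both WT arrays for 5 members (ZNF136, ZNF567, ZNF576, ZNF534 and ZNF784), which is 3.45% of members, against 7.96% of all genes. Every mutant array was below both WT arrays for 6 (ZNF558, ZNF121, ZNF823, ZNF146, ZNF83 and ZNF8), which is 4.14%, against 6.93% of all genes. Both shares were under the background, so these genes are described and not counted as a set.

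ZNF83 had the largest shared difference. Its values were 6.76 and 6.89 in ORC1B14, 7.45 and 7.47 in ORC1BP32, 7.27 and 6.82 in ORC2B2, 7.84 and 6.86 in ORC2BP8, and 8.44 and 8.08 in WT. All 8 mutant arrays lay below both WT arrays. The mean of the 4 mutant lines minus WT was -1.09 (SE 0.24, adjusted p = 0.0547), and -1.11 and -1.07 within replicates 1 and 2. By line the difference was -1.44 in ORC1B14 (adjusted p = 0.0630), -0.80 in ORC1BP32 (0.409), -1.22 in ORC2B2 (0.114) and -0.91 in ORC2BP8 (0.188).

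ZNF567 was the member with the largest shared difference in the other direction. It had 5.82 and 6.09 in ORC1B14, 6.41 and 6.34 in ORC1BP32, 6.35 and 6.40 in ORC2B2, 6.33 and 6.37 in ORC2BP8, and 5.65 and 5.42 in WT. The 6 arrays of ORC1BP32, ORC2B2 and ORC2BP8 lay between 6.33 and 6.41, and ORC1B14 lay between them and WT. The mean difference was 0.73 (SE 0.15, adjusted p = 0.0505). By line it was 0.42 for ORC1B14, 0.84 for ORC1BP32, 0.84 for ORC2B2 and 0.81 for ORC2BP8, with adjusted p between 0.0843 and 0.296.

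ZNF121 and ZNF146 are further members with every mutant array below WT, and both are among the 6 members with the highest mean value. ZNF146 encodes OZF, a protein made almost only of zinc fingers. ZNF121 had 9.24 and 9.61 in ORC1B14, 9.60 and 9.93 in ORC1BP32, 9.98 and 9.80 in ORC2B2, 9.97 and 9.81 in ORC2BP8, and 10.37 and 10.25 in WT. Its mean difference was -0.57 (SE 0.15, adjusted p = 0.0830), and the lowest line was ORC1B14 at -0.88 (adjusted p = 0.0671). ZNF146 had 9.01 and 9.64 in ORC1B14, 9.44 and 9.70 in ORC1BP32, 9.68 and 9.66 in ORC2B2, 9.71 and 9.62 in ORC2BP8, and 10.02 in both WT arrays. Its mean difference was -0.46 (adjusted p = 0.179).

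Among the other members named for a low mean, ZNF558, known in human cells as a repressor of the mitophagy gene SPATA18, had 6.39 and 6.90 in ORC1B14, 6.63 and 7.07 in ORC1BP32, 6.43 and 6.90 in ORC2B2, 6.90 and 7.04 in ORC2BP8, and 7.14 and 7.45 in WT. The groups did not overlap and the mean difference was -0.51 (adjusted p = 0.229). ZNF460 was at -0.59 (adjusted p = 0.169, and -0.31 without WT replicate 1), ZNF333 at -0.55 (0.259) and ZNF600 at -0.47 (0.198), each with some overlap between mutant and WT arrays. ZNF600 was lowest in ORC1BP32, at 5.46 and 5.01 there against 6.21 and 5.89 in WT.

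Among those named for a high mean, ZNF136 had 3.52 and 3.68 in ORC1B14, 3.87 and 3.99 in ORC1BP32, 3.98 and 4.50 in ORC2B2, 3.74 and 4.03 in ORC2BP8, and 3.32 and 3.43 in WT. No mutant array overlapped WT, and the mean difference was 0.54, with ORC2B2 highest at 0.86. ZNF136 reached the array median on 4 arrays, all of mutant lines, so it was tested only through lines in which it was high, and these differences are a description. ZNF416 was at 0.60 (adjusted p = 0.264), ZNF551 at 0.55 (0.429), ZNF557 at 0.51 (0.233) and ZNF230 at 0.45 (0.345), each with some overlap. The differences of ZNF557 and ZNF230 depended on the WT arrays. Without WT replicate 1 they were 0.15 and 0.06, and without WT replicate 2 they were 0.87 and 0.84.

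**Figure D3:**
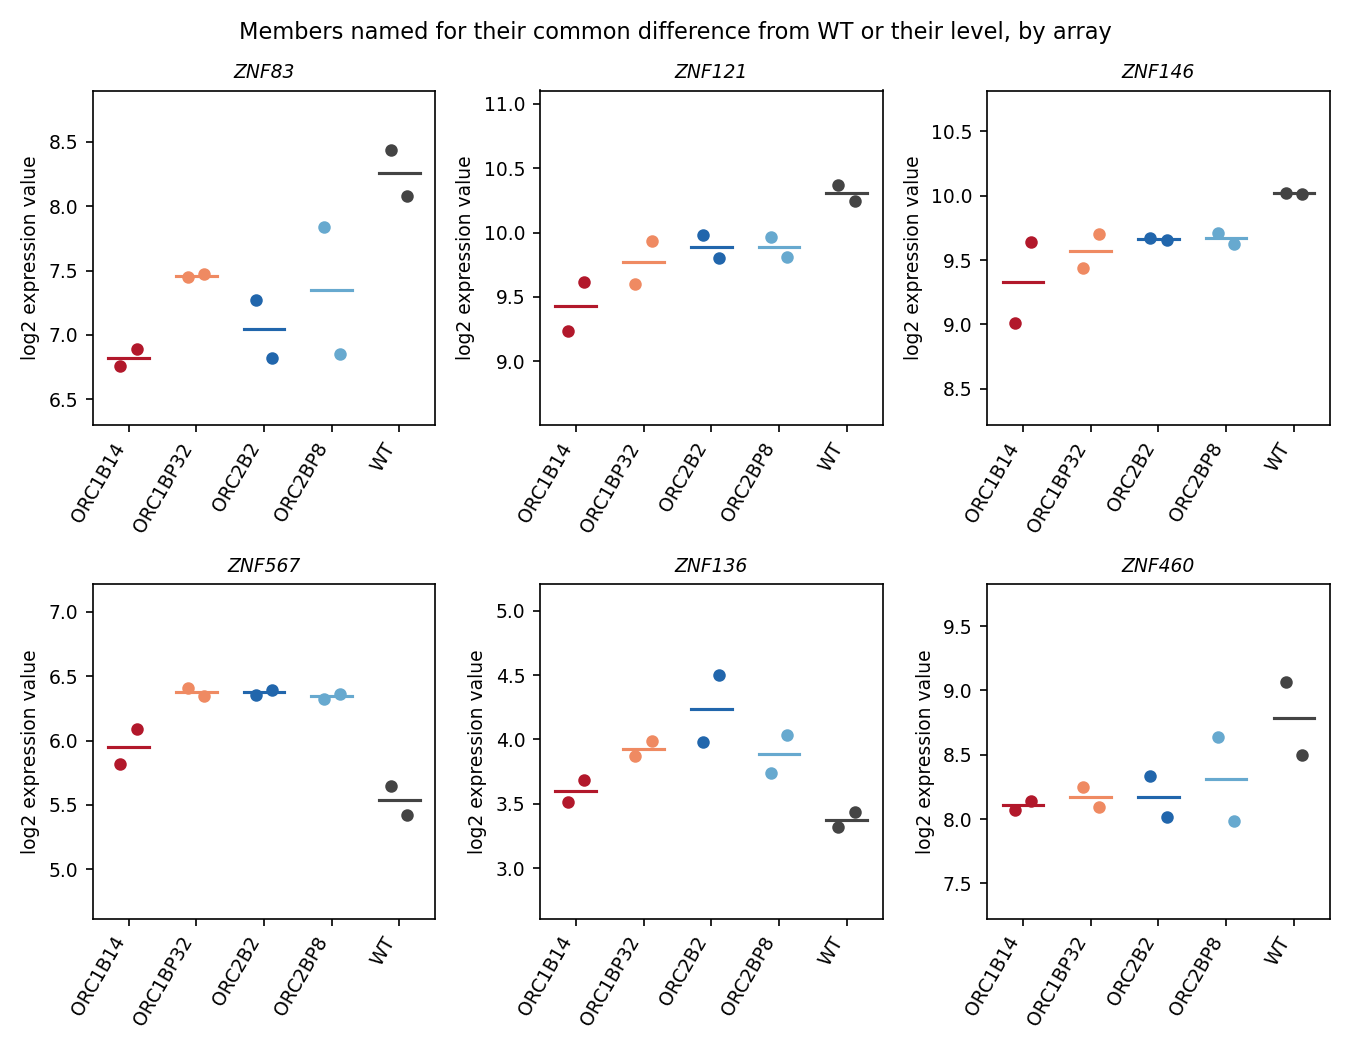
Log2 expression value (y axis) of 6 members in each of the 10 arrays, by line (x axis); points are arrays and bars are line means. ZNF83, ZNF121 and ZNF146 had both WT arrays above all mutant arrays and ZNF567 and ZNF136 had them below, while for ZNF460 1 ORC2BP8 array (8.64) lay above the lower WT array (8.50).

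Other members were named for a single line. In ORC1B14, ZNF358 was at 0.68 relative to WT (adjusted p = 0.253) and ZNF493 at -0.97. ZNF493 reached the array median on 5 arrays, none of them of ORC1B14, so its difference is a description. ZNF493 was among the 4 members with the largest SD over line means (0.51), with 3.20 on both ORC1B14 arrays but 3.72 and 4.69 on the ORC1BP32 arrays, against 4.59 and 3.74 in WT. In ORC2BP8, ZNF584 was at 0.76 (adjusted p = 0.307), with 6.89 and 7.96 there against 6.46 and 6.87 in WT, and 0.23 without ORC2BP8 replicate 2. ZNF302 was at -0.62 in the same line (adjusted p = 0.355), with 5.64 and 5.11 against 5.91 and 6.08 in WT.

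ZNF317, ZNF574 and ZNF766 were named for a high mean value. ZNF317 ranged from 8.37 to 9.09 over the 8 mutant arrays and had 8.20 and 8.67 in WT, ZNF574 from 7.88 to 8.46 with 7.97 and 8.13 in WT, and ZNF766 from 7.43 to 8.35 with 7.86 and 8.17 in WT. In each of the 3 the WT arrays overlapped the range of the mutant arrays.

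ZNF274 was looked at for its known role, since it binds the 3′ ends of zinc finger genes and recruits TRIM28 and SETDB1 there. It had 5.80 and 5.55 in ORC1B14, 5.41 and 5.20 in ORC1BP32, 5.20 and 5.80 in ORC2B2, 5.18 and 5.87 in ORC2BP8, and 4.97 and 5.37 in WT. The mutant and WT arrays overlapped, and the mean difference was 0.34 (SE 0.22, adjusted p = 0.480).

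The regulators with which KRAB zinc finger proteins act, or that write, read or remove H3K9me3 and DNA methylation, gave 1 call over all comparisons run, in the mean of the 4 mutant lines minus WT, where 1.02% of all genes were called. Of 37 listed genes 31 were named and tested, and the rest were not analysed here. In that comparison 18 lay above 0 and 13 below, with a median of 0.06, against 0.04 over all genes. At an unadjusted p under 0.05, 7 of the 31 were higher and 2 lower, against 8.76% and 8.51% of all genes. The higher share was thus over that of all genes and the lower share under it, which was not tested. The called gene was UHRF1, which binds hemimethylated DNA behind the replication fork and recruits the methyltransferase DNMT1.

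UHRF1 had 8.54 and 8.75 in ORC1B14, 8.72 and 8.46 in ORC1BP32, 8.88 and 8.73 in ORC2B2, 8.65 and 8.89 in ORC2BP8, and 8.00 and 7.98 in WT. It rose by 0.71 in the mean of the mutant lines (SE 0.14, limma adjusted p = 0.0487). Leaving out arrays in turn gave 0.68 to 0.74, and the adjusted p was above 0.05 on leaving out any array but ORC2BP8 replicate 1, with a range of 0.0339 to 0.298. DNMT1, chosen after its values were seen, had 10.01 and 10.16 in ORC1B14, 10.03 and 10.11 in ORC1BP32, 10.06 and 10.12 in ORC2B2, 9.98 and 10.02 in ORC2BP8, and 9.52 and 9.64 in WT (mean difference 0.48, adjusted p = 0.0683). The 2 regulators lower at an unadjusted p under 0.05, also named after their values were seen, were KDM4C and KDM4A. KDM4C had every mutant array below WT (-0.50, limma adjusted p = 0.146), and KDM4A was at -0.34 with overlap (0.227).

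TRIM28, the corepressor itself, had 10.10 and 9.97 in ORC1B14, 10.02 and 9.77 in ORC1BP32, 9.93 and 9.85 in ORC2B2, 9.89 and 10.34 in ORC2BP8, and 9.55 and 9.60 in WT. Every mutant array was above WT, with a mean difference of 0.41 (SE 0.14) and an adjusted p of 0.179. LRWD1, which binds the origin recognition complex and heterochromatin, also had every mutant array above WT, from 7.07 to 7.62 in the mutant lines against 6.89 and 6.99 in WT (0.43, adjusted p = 0.211). SUV39H1, which methylates H3K9, was at 0.55 (adjusted p = 0.317) with overlap, at 0.20 without WT replicate 1 and at 0.90 without WT replicate 2. The HP1 genes were at 0.23 for CBX1, -0.03 for CBX3 and 0.17 for CBX5, with adjusted p from 0.511 to 0.933, and CBX3 was above 0 when the arrays were centred.

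Cluster medians of the mean of the 4 mutant lines minus WT, over clusters with at least 3 tested members, ran from -0.15 (ZNF302 to ZNF792, 3 members) to 0.10 (ZNF283 to ZNF180, 10 members).

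**Figure D4:**
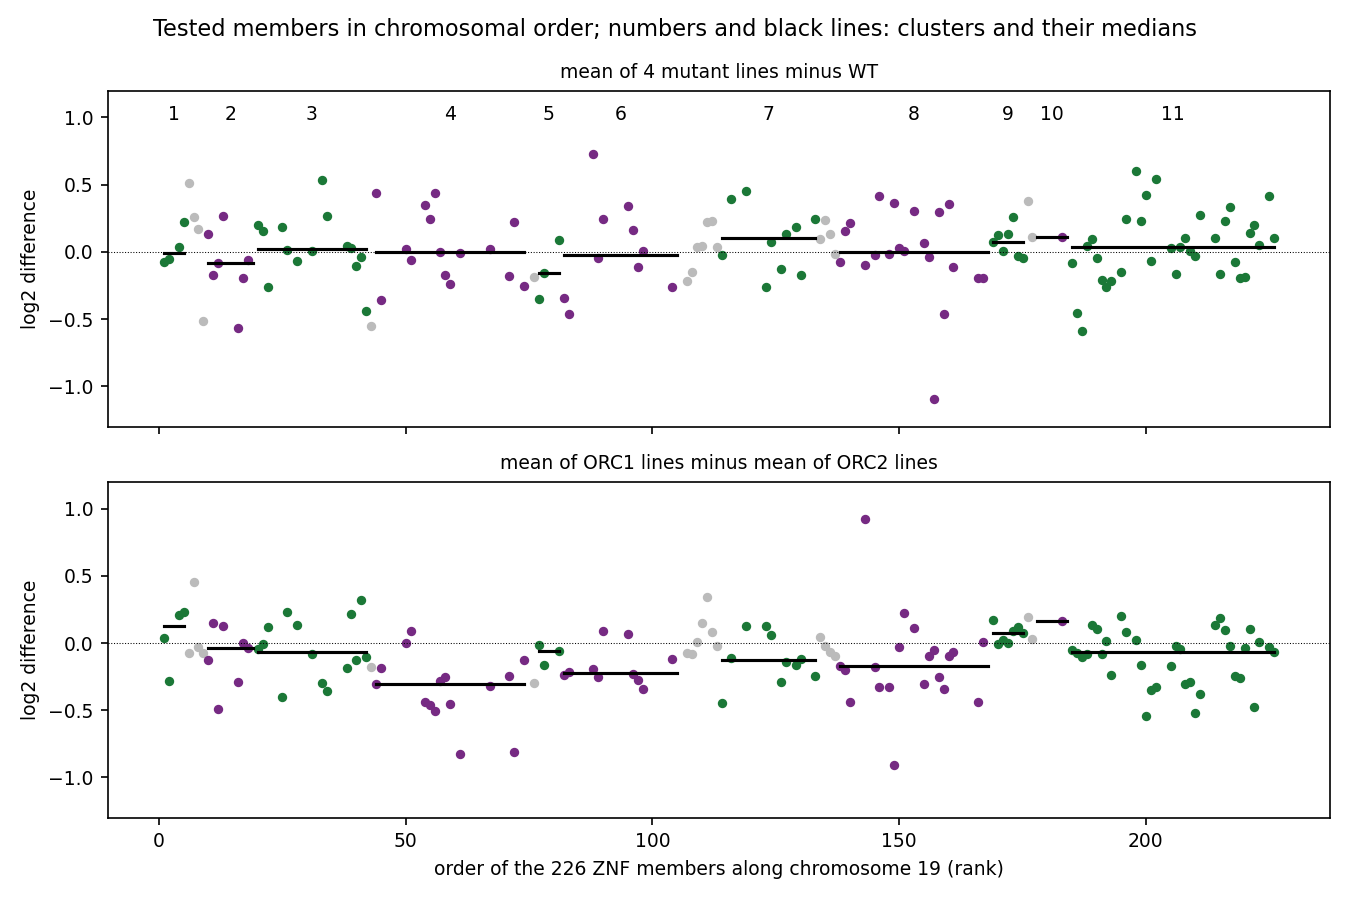
Log2 difference (y axis) of each tested member against its rank among the 226 members along chromosome 19 (x axis), for the mean of 4 mutant lines minus WT (top) and for ORC1 minus ORC2 lines (bottom). Numbers and black lines mark the 11 clusters and their medians, alternating colours separate clusters, and grey points are in no cluster. The fourth cluster, ZNF101 to ZNF254, had a median of 0.00 in the top panel and -0.30 in the bottom one.

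The ORC1 lines lay below the ORC2 lines in more members than above. No member was called in that comparison, where 0.0463% of all genes were called. At an unadjusted p under 0.05, 18 members (12.4%) were lower in ORC1 lines and 2 (1.38%) higher, against 2.83% lower and 4.13% higher of all genes. ZNF genes of other chromosomes leaned the same way, with 5.71% lower and 1.9% higher. The other genes of chromosome 19 had 1.45% lower and 4.36% higher. Of the 145, 99 lay below 0, and the median was -0.08, against 0.00 over all genes, -0.06 over ZNF genes of other chromosomes and 0.06 over the other genes of chromosome 19. All 4 ORC1 arrays lay below all 4 ORC2 arrays in 10 members (ZNF559, ZNF101, ZNF100, ZNF226, ZNF180, ZNF600, ZNF134, ZNF587, ZNF814 and ZNF8), which is 6.90%, against 1.25% of all genes. The reverse held for 1 member, ZNF57 (0.690%, against 2.09%). These 2 shares were 3.33% and 0.952% in ZNF genes of other chromosomes, and 1.16% and 2.18% in the other genes of chromosome 19.

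The size of that difference depended on the replicate number. The median over members was -0.17 within the replicate 1 arrays and -0.03 within the replicate 2 arrays, with 94 and 82 of 145 below 0. ZNF genes of other chromosomes had -0.12 and 0.01, the other genes of chromosome 19 had 0.17 and -0.06, and all genes 0.01 in both. The 18 members were each lower within both replicates, but they were chosen on these same arrays, so this is only a description. On leaving out 1 array, the number of members lower at an unadjusted p under 0.05 fell or rose, depending on the array. It fell most without replicate 1 of ORC1B14, ORC1BP32 or ORC2B2 and rose without ORC1B14 replicate 2. The median over members then ranged from -0.13 to -0.04. Without both ORC1 replicate 1 arrays, a setting added after the data were seen, 3 members were lower (2.07%, against 1.65% of all genes) and 3 higher, and the median was -0.03.

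Those arrays also stood apart in their mean over the members. It was 5.50 and 5.69 in ORC1B14, 5.60 and 5.69 in ORC1BP32, 5.74 in both ORC2B2 arrays, 5.72 and 5.70 in ORC2BP8, and 5.58 and 5.71 in WT, with replicate 1 first. The other tested genes of chromosome 19 had 6.51 and 6.34 in ORC1B14, 6.47 and 6.27 in ORC1BP32, 6.26 and 6.32 in ORC2B2, 6.35 and 6.39 in ORC2BP8, and 6.21 in both WT arrays. The ORC1 replicate 1 arrays, with WT replicate 1, were the 3 lowest for the members, and they were the 2 highest for the rest of the chromosome. The part of these array differences in the ORC1 against ORC2 counts was not tested.

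The members lower in ORC1 lines included 5 of the 15 tested members of the cluster from ZNF101 to ZNF254, namely ZNF85, ZNF430, ZNF100, ZNF98 and ZNF675. Adjusted p over all genes was between 0.152 and 0.712 for the 18. In that cluster 14 of 15 tested members lay below 0, with a median of -0.30, and -0.47 and -0.10 within replicates 1 and 2. By replicate 14 and 10 of the 15 lay below 0, and 9 did in both. The cluster's mean was 4.69 and 4.84 in ORC1B14, 4.80 and 5.01 in ORC1BP32, 5.25 and 5.09 in ORC2B2, 5.31 and 5.05 in ORC2BP8, and 4.90 and 5.05 in WT. The cluster's median was -0.22 without both ORC1 replicate 1 arrays. The cluster was singled out after its values were seen, so it has no test. The other 13 of the 18 lay outside it. Medians were also below 0 from ZNF565 to ZNF573 (-0.22, 8 of 10 below 0), from ZNF577 to ZNF331 (-0.17, 16 of 20) and from ZNF283 to ZNF180 (-0.13, 7 of 10), but within the replicate 2 arrays they were 0.01, 0.04 and 0.05. They were above 0 from ZNF554 to ZNF77 (0.12, 3 of 4 above 0) and from ZNF628 to ZNF580 (0.07, 5 of 7).

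ZNF100 had 6.57 and 6.93 in ORC1B14 and 6.06 and 6.24 in ORC1BP32, against 7.48 and 7.14 in ORC2B2 and 7.48 and 7.01 in ORC2BP8, with 6.85 and 6.90 in WT. All 4 ORC1 arrays lay below all 4 ORC2 arrays, and WT lay between the group means. The difference was -0.83 (SE 0.16, adjusted p = 0.152), with -1.17 and -0.49 within replicates 1 and 2. ZNF675, a KRAB zinc finger protein known to inhibit TRAF6 signalling, had 3.64 and 4.31 in ORC1B14 and 4.36 and 4.80 in ORC1BP32, against 4.75 and 5.67 in ORC2B2 and 5.13 and 4.78 in ORC2BP8, with 4.29 and 4.63 in WT. Its groups overlapped in 1 ORC1BP32 array, and the difference was -0.81 (SE 0.23, adjusted p = 0.366).

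ZNF91, known as a repressor of SVA retrotransposons in human cells, had 3.53 and 3.62 in ORC1B14 and 4.18 and 4.38 in ORC1BP32, against 4.47 and 3.97 in ORC2B2 and 4.17 and 4.08 in ORC2BP8, with 4.24 and 4.23 in WT. It was lowest in ORC1B14, at -0.66 relative to WT, and ORC1 minus ORC2 was -0.24. ZNF91 reached the array median on 8 arrays, none of them of ORC1B14, so these differences are a description. Outside the cluster, the lowest member was ZNF480, with 5.75 and 7.62 in ORC1B14 and 6.21 and 7.18 in ORC1BP32, against 7.84 and 7.51 in ORC2B2 and 7.47 and 7.58 in ORC2BP8, with 6.48 and 7.08 in WT. The replicate 1 arrays carried most of that difference, which was -0.91 (adjusted p = 0.633), and -1.67 and -0.14 within replicates 1 and 2.

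The 3 members with the highest differences ORC1 minus ORC2, none of them called, were ZNF614, described above, ZNF358 at 0.46 (adjusted p = 0.690) and ZNF575 at 0.34 (0.722). ZNF358 had 7.85 and 7.30 in ORC1B14 and 7.31 and 7.05 in ORC1BP32, against 7.27 and 6.83 in ORC2B2 and 7.16 and 6.43 in ORC2BP8, with 6.86 and 6.93 in WT. Within each mutated gene, ORC1BP32 minus ORC1B14 called 0 members (0.0185% of all genes), with 4 higher and 5 lower at an unadjusted p under 0.05 (2.83% and 2.48% of all genes). ORC2BP8 minus ORC2B2 called ZNF614 alone (0.222% of all genes), with 2 higher and 4 lower at that level (2.45% and 3.01%).

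**Figure D5:**
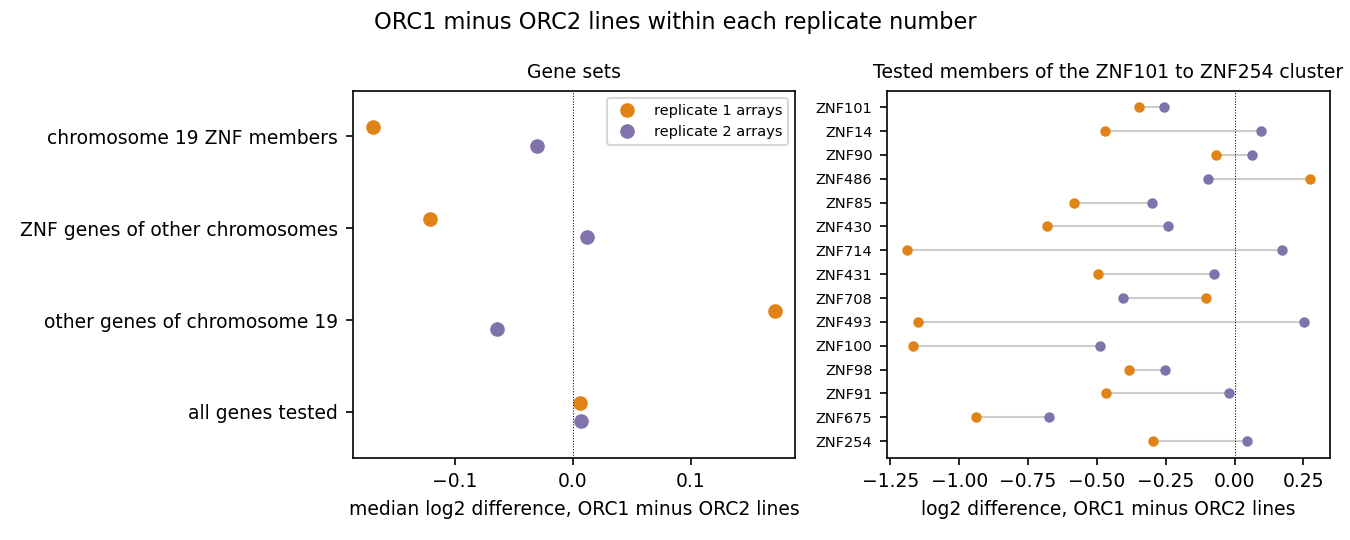
ORC1 minus ORC2 lines on the log2 scale (x axis), within replicate 1 arrays (orange) and replicate 2 arrays (purple): medians of 4 gene sets (left) and the 15 tested members of the cluster from ZNF101 to ZNF254 (right). The members' median was -0.17 in replicate 1 and -0.03 in replicate 2, and 14 and 10 of the 15 cluster members lay below 0.

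Members of that cluster also share promoter sequence. The windows before the starts of ZNF100 and ZNF675, the cluster's lowest members in ORC1 minus ORC2, and of ZNF91 are shown to let the shared stretches be seen. They lie at chr19:21767580-21767829, chr19:23687213-23687462 and chr19:23395472-23395721 (RefSeq, GRCh38.p14), all on the minus strand and written 5′ to 3′. Capitals mark occurrences of the 4 words CTGTCACTCAGG, CCTGGCTCAGCT, GTCCAATCAGGC and CTTTGTCTCTCG, the last of which does not occur in the stretches printed. They are the words of 12 letters found in most windows of this cluster, with no run of 6 letters in common, so their frequency in the cluster is what chose them.
ZNF100: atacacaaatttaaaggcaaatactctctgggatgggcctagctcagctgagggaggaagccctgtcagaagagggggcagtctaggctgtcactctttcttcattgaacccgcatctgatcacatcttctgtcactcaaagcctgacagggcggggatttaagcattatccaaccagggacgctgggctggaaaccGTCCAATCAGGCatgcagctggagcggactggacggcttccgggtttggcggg
ZNF675: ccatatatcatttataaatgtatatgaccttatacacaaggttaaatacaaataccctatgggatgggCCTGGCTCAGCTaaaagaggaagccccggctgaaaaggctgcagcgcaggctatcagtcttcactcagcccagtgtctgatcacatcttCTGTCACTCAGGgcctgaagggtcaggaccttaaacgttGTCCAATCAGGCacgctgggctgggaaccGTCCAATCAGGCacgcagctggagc
ZNF91: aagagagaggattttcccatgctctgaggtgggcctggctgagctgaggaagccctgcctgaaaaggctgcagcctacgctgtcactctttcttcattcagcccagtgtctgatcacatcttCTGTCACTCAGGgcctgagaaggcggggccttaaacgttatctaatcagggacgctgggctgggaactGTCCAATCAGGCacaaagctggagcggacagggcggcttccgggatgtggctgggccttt

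GTCCAATCAGGC begins 53 bases before the start of ZNF100 and 60 before that of ZNF91, and ZNF675 holds it 2 times, 54 and 25 bases before its start. CTGTCACTCAGG begins 93 bases before the start of ZNF675 and 128 before that of ZNF91. ZNF100 has a near copy in lower case, and near copies were not counted.

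The words were searched on both strands of windows of 300 bases (250 before the start to 50 after), which RefSeq gave for 198 members, 24 of them in the cluster, and for 27305 genes in all. CTGTCACTCAGG stood in 16 of the 24 cluster genes (66.7%), in 4 of the 174 other members and in 0.139% of all genes. CCTGGCTCAGCT stood in 14 (58.3%), 0 and 0.0989%. GTCCAATCAGGC, which holds the letters CCAAT that the factor NF-Y is known to recognise, stood in 14 (58.3%), 1 and 0.117%. CTTTGTCTCTCG stood in 13 (54.2%), 0 and 0.0659%. At least 1 word stood in 21 cluster genes (87.5%), in 5 other members (2.87%) and in 0.256% of all genes.

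Among tested members, 12 cluster genes held a word, 11 of them below 0 in ORC1 minus ORC2, with a median of -0.36. The 2 cluster genes with a window and no word (ZNF101 and ZNF14) were both below 0, with a median of -0.25. The 3 other members with a word (ZNF878, ZNF136 and ZNF709) had a median of -0.08, and the 116 with none had -0.06. The cluster was chosen on these differences and only 2 of its tested genes with a window lack a word, so these medians say nothing of the words' part, which was not tested. The windows of members had a median GC content of 60.6% and 20 CpG dinucleotides, against 58.3% and 14 over all genes.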

How the data were processed

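Expression was measured on 10 Affymetrix arrays, 2 for each of 5 HCT116 lines. The authors deposited 1 value per probe set and array, taken here as log2 from their range of 1.45 to 13.7, since the log base is not written in the labels. Affymetrix Expression Console is the tool given in the submitters' processing notes. The normalization is not given in the sources used here, and the values were used as deposited. Of 53617 probe sets, 16098 had exactly 1 symbol in the platform's annotation, 0 had several and 37519 were unnamed here. All 16098 matched RefSeq by gene ID.

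A probe set was kept at or above its array's median on at least 2 arrays, and the brightest kept one stood for a gene, which left 10797 genes. Differences were fitted in R 4.3.3 with limma 3.58.1 (lmFit on 5 line means, eBayes with an intensity trend, 5 residual and 5.83 prior degrees of freedom). P-values are two-sided and adjusted by Benjamini-Hochberg over all genes tested. The fit was tested on simulated data with known changes. No 2 arrays held identical values (0 pairs). Promoter windows came from RefSeq (GRCh38.p14).

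The members and lists were chosen with earlier results of these data known. The text names members called in any comparison, the 6 highest and 6 lowest in the mean of 4 mutant lines minus WT, the 3 highest and 3 lowest in each line minus WT and in ORC1 minus ORC2 lines, the 6 members with the highest mean value and the 4 with the largest SD over line means. From the regulators it names those called and 7 fixed ones where tested. Any other named gene was chosen after its values were seen. Alternatives were quantile normalization, centring of arrays, other filters on dim probe sets, the mean over probe sets, no intensity trend, a replicate block and leaving out each array.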

Additional observations from a re-analysis of the deposited data

Results flagged for a closer look

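ZNF614 differed between the lines of the same mutated gene: ORC2BP8 minus ORC2B2 was -1.44 on the log2 scale (limma adjusted p = 0.0431, 4.19 and 4.44 in ORC2BP8 against 5.89 and 5.61 in ORC2B2).

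ZNF559 had the ORC1 and the ORC2 lines on opposite sides of WT. It had 5.75 and 6.07 in ORC1B14 and 5.39 and 6.03 in ORC1BP32, against 6.18 and 6.44 in ORC2B2 and 6.29 and 6.30 in ORC2BP8, with 6.17 and 6.11 in WT. Both ORC1 lines lay below WT and both ORC2 lines above it, and ORC1 minus ORC2 was -0.49 (limma adjusted p = 0.520). The differences of the single lines from WT had limma adjusted p between 0.602 and 0.855. The line means of ZNF100 lay on the same sides of WT, so the pattern is not particular to ZNF559. That the lines oppose each other around WT was not tested.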

How the results depend on the processing

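Members called numbered 0 in ORC1B14 minus WT, 0 in ORC2B2 minus WT, 1 in ORC2BP8 minus WT, 0 in the mean of 4 mutant lines, 0 in ORC1 minus ORC2 lines, 1 in ORC2BP8 minus ORC2B2 and 1 by the F test. With quantile normalization ORC1B14 minus WT gave 1 (ZNF121, against 0.834% of all genes) and the mean of 4 lines 1 (ZNF567, against 1.89%). For that mean, centring the arrays gave 2 (ZNF567 and ZNF83), the filter on all 10 arrays 2, the filter on the mean over arrays 1, the mean over probe sets 1 and no intensity trend 1, against 0.88% to 1.89% of all genes. The ZNF614 call in ORC2BP8 minus WT was kept under each of these settings and without a filter, while ORC2BP8 minus ORC2B2 gave 0 without a filter. UHRF1, the 1 regulator called in the mean of 4 lines, was lost without the filter (0 called) and without the trend (0 called). Centring also put CBX3 at 0.0322. The cause of these moves was not tested. Scaling moved the median of all genes by at most 0.08. The members called also changed on leaving out 1 array, and CBX3 in the mean of 4 lines then ranged from -0.0930 to 0.0271. Same-numbered arrays of the 10 pairs of lines correlated at 0.08 to 0.57 in their deviations from line means, with 9 of 10 over 0.1, and were not taken as pairs because 1 was under it. With the replicate block, members called were 3 in ORC1B14, 3 in ORC2B2 and 3 in ORC2BP8 minus WT (4.59%, 2.32% and 3.72% of all genes). They were 6 in the mean of 4 lines (6.57%), among them ZNF83 and ZNF567, and 2 in ORC1 minus ORC2 lines (ZNF100 and ZNF614, 0.537%). The F test with the block called 4, and its share over all genes is not given here. Regulators called with the block were 1, 1 and 1 in the same 3 lines and 2 in the mean of 4 lines, beside the same shares of all genes.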
